A study of Mus musculus with 3 samples.

Results

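The complement genes followed here are 9 of the 31053 genes in the files. They were chosen as a named list and not by ranking their measured values, though with earlier results of these data known. They are the 3 chains of C1q (C1qa, C1qb and C1qc), the components C3, C4b, Cfb and Cfp, and the receptors C3ar1 and C5ar1. The data come from 3 whole neuroblastomas of TH-MYCN mice, a line in which a MYCN transgene is driven by the tyrosine hydroxylase promoter, so that tumors arise from cells of the sympathetic lineage. Tumors 1, 2 and 3 were taken from mice of 62, 79 and 63 days, all heterozygous for the transgene, with no treatment named in the labels, and they form 1 group of 3 tumors with no control tissue. Each tumor was dissociated with Liberase and DNase, and single cells were captured with the droplet-based 3′ kit of 10x Genomics, which tags each captured RNA molecule with a unique molecular identifier (UMI).

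Complement is a cascade of plasma and cell-derived proteins that marks surfaces for uptake and attracts white blood cells. C1q starts the classical pathway when it binds to antibody or to dying cells, C4b and C3 are then cleaved and deposited on the surface, and factor B (Cfb) and properdin (Cfp) form and stabilize the enzyme of the alternative pathway. The small fragments released from C3 and C5 are sensed by C3ar1 and C5ar1. In most tissues C1q is made by resident macrophages, properdin by myeloid cells, and C3, C4 and factor B by liver and by stromal cells. 

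The barcodes that the authors kept numbered 1914, 1221 and 2515 in tumors 1, 2 and 3, or 5650 in all, with median depths of 4282.5, 1594 and 1816 UMIs. Clustering without the complement genes gave 12 classes, named from marker genes as "X-like". Macrophage-like cells numbered 644, 110 and 188 in the 3 tumors, neutrophil-like cells 236, 54 and 22, cancer-associated fibroblast (CAF)-like cells 48, 9 and 31, mesothelial-like cells 16, 4 and 6, and tumor-like cells 351, 940 and 2097. For each class, the raw counts of a tumor's cells were added up wherever there were at least 10 of them, and levels are UMIs per 1e6 (CPM) scaled by edgeR's TMM factors. A tumor, not a cell, is the replicate. The 3 pairs of tumors shared 3, 0 and 1 kept barcodes. With 3′ capture a gene gives 1 count per molecule whatever its length, and the efficiency of capture of each gene is unknown, so levels are compared between cells and not between genes.

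The C1q genes lie side by side on the minus strand of chromosome 4 in the GRCm38 mouse genome (GENCODE M21), with C1qb from 136880129 to 136886187, C1qc from 136889804 to 136893065 and C1qa from 136895917 to 136898803. No other annotated gene overlaps them, and C1qc is 2851 bases from C1qa and 3616 bases from C1qb. RefSeq promoter sequences (GRCm38.p6, 250 bases before to 50 bases after the start) were at hand for 6 of the 9 genes. The promoters of C1qb at chr4:136886151-136886450 and C1qc at chr4:136892865-136893164, both on the minus strand, are shown because both chains were called together in macrophage-like cells. Capitals mark GAGGAA, the core of the binding site of the myeloid factor PU.1, on either strand. That core was found in 28.3% of the 32851 promoters of this length, so a match is a description and not a site. Of the 6 promoters at hand, 3 held it, those of C1qb, C1qc and Cfp. Those of C3, C3ar1 and C5ar1 did not.
C1qb: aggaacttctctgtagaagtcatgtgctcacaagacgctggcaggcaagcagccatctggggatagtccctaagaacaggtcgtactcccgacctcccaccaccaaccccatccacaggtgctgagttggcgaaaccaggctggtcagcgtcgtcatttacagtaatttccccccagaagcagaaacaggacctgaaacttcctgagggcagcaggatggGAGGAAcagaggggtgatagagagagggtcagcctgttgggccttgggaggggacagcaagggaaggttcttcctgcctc
C1qc: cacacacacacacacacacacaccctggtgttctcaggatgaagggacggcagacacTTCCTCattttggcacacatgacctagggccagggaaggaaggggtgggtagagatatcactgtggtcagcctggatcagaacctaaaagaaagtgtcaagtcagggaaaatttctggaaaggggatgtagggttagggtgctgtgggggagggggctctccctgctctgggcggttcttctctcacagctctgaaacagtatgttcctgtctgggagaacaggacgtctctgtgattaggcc

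The 3 C1q chains were concentrated in macrophage-like cells. C1qa stood at 1081.5, 1961 and 2025 CPM in the macrophage-like cells of tumors 1, 2 and 3, with a mean of 1689 ± 527 CPM (SD, n = 3 tumors). C1qb stood at 1447, 2716 and 2486 CPM, and C1qc at 797, 1648 and 1411 CPM. Tumor 1 was the lowest for each chain, and every macrophage-like sum lay above every sum of another class. Averaged over the other 11 classes the levels were 23.0 CPM for C1qa, 50.8 CPM for C1qb and 22.9 CPM for C1qc, so the means in macrophage-like cells were 73.3, 43.7 and 56.2 times higher.

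Set against the other classes, each given equal weight, edgeR's quasi-likelihood test over 9745 genes called 6 of the 9 complement genes higher in macrophage-like cells, namely the 3 C1q chains, Cfp, C3ar1 and C5ar1, and none lower. Of all genes tested, 10.2% were called higher and 0.0821% lower. The Benjamini-Hochberg adjusted p was 5.60e-08 for C1qa, 6.95e-08 for C1qb and 6.40e-08 for C1qc, and each was higher in 3 of 3 tumors. DESeq2 called 4 higher, without the 2 receptors. No complement gene was lower at an unadjusted p under 0.05 or by DESeq2. This test averages logarithms over classes, and for most of the 9 genes some classes held no UMI, so fitted fold changes against the mean of all classes depend on the small count that edgeR adds. Ratios of mean CPM are given in their place. The median fitted log2 fold change was 4.69 over the 9 genes and 0.38 over all genes tested.

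**Figure D1:**
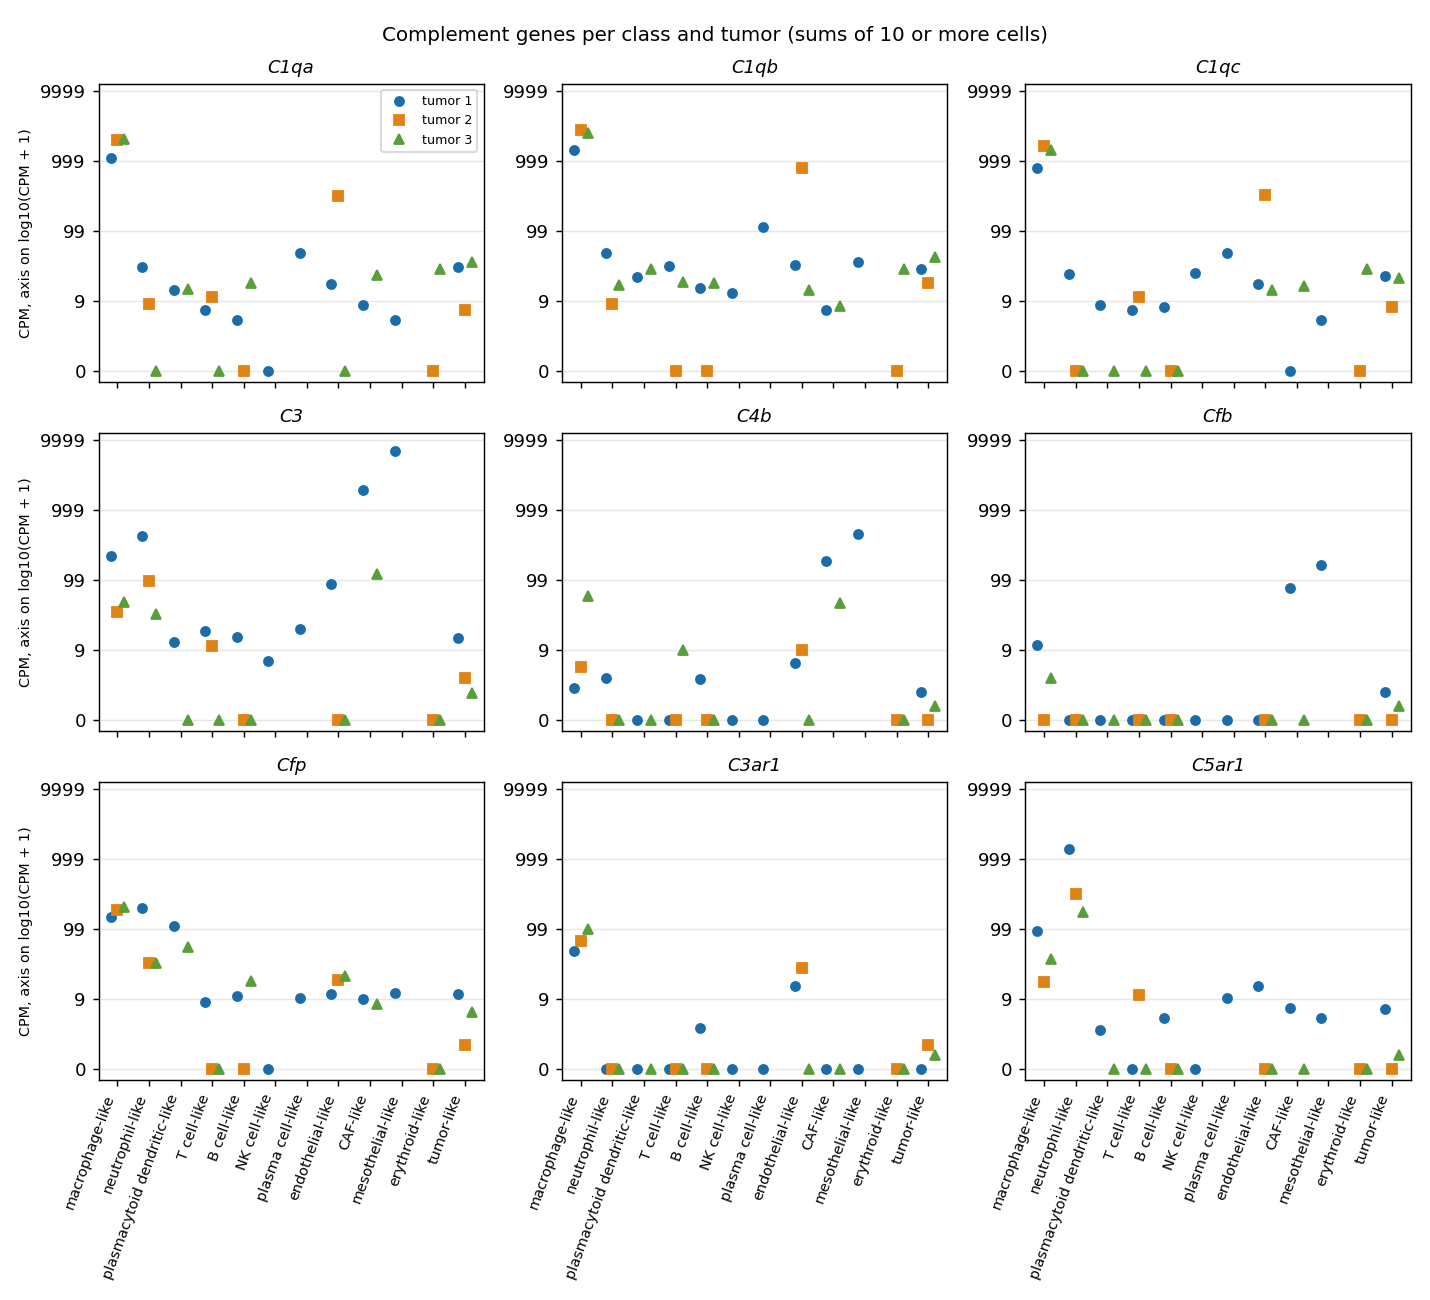
Levels of the 9 complement genes in the sums of each class and tumor, as CPM on an axis of log10(CPM + 1), with 1 point per tumor (tumor 1 circles, tumor 2 squares, tumor 3 triangles). The C1q chains are highest in macrophage-like cells (1689 CPM on average for C1qa), C5ar1 in neutrophil-like cells, and C3, C4b and Cfb in mesothelial-like and CAF-like cells.

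Macrophage-like cells held nearly all C1q RNA of these tumors. Their share of the C1qa UMIs of all kept cells was 98.6%, 94.3% and 91.6% in tumors 1, 2 and 3, although they made up 33.6%, 9.01% and 7.48% of the cells. For C1qb the shares were 98.1%, 90.5% and 91.4%, and for C1qc 98.5%, 93.3% and 92.7%. In tumor 3, tumor-like cells held another 8.03% of the C1qa UMIs. They were 83.4% of its cells and held 76.0% of its UMIs of all genes.

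A low level of C1q was counted in nearly all other sums, with 0 UMIs in the B cell-like and erythroid-like sums of tumor 2 alone. Tumor-like cells, which should not express it, had 82.6, 28.9 and 82.0 CPM of the 3 chains together, on the scale of raw totals, which was 3.24%, 0.455% and 1.44% of the macrophage-like level of the same tumor. The 13 macrophage markers used for naming stood at 1.96%, 0.641% and 1.11% of their macrophage-like level in the same tumor-like sums. Neutrophil-like, T cell-like and CAF-like sums were in the same range for C1q, between 0.236% and 1.89% of the macrophage-like level. The highest level outside macrophage-like cells was in the endothelial-like sum of tumor 2, where C1qa, C1qb and C1qc were at 316, 776 and 325 CPM. Of its 157 C1q UMIs, 154 came from a single cell out of 21, and the 13 macrophage markers stood there at 28.1% of their macrophage-like level. The endothelial-like sums of tumors 1 and 3 had 35 and 4 C1q UMIs.

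Since depth differed, each cell was thinned to 500 UMIs before cells were counted. No cell was shallower. A C1q UMI was then found in 18.8% of the macrophage-like cells of tumor 1 (95% exact binomial interval 15.8 to 22%), 52.7% of tumor 2 (43.0 to 62.3%) and 49.5% of tumor 3 (42.1 to 56.8%). In tumor-like cells the shares were 7.69% (5.13 to 11%), 1.38% (0.738 to 2.35%) and 4.1% (3.29 to 5.04%). The macrophage-like share thus exceeded the background share of its own tumor in each tumor, and tumor 1 stood below the others. Part of each macrophage-like share came from an unnamed subcluster described below, with 78 of 644, 48 of 110 and 82 of 188 macrophage-like cells. At 500 UMIs, 36, 16 and 32 of its cells lacked a C1q UMI. What the mix of subsets adds to the difference between tumors was not tested. At full depth the macrophage-like shares were 32.0%, 67.3% and 64.4%, with median depths of 8414, 2419 and 2848 UMIs, against 13.1%, 5.32% and 13.7% in tumor-like cells with median depths of 943, 1545 and 1812 UMIs. These intervals cover counting error only.

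Within macrophage-like cells, the C1q genes followed the subsets. The cells fell into Apoe+-like (80, 15 and 32 cells), Ccr2+-like (188, 9 and 15) and Pecam1+-like cells (298, 38 and 59), named for the lipid carrier Apoe, the monocyte receptor Ccr2 and the adhesion molecule Pecam1. The Pecam1+-like cells are mixed. They join a subcluster of 225 cells, in which 11 of 11 markers passed, and one of 170 cells, in which 3 of 11 passed and Tnf led. The text does not separate them. A further subcluster of 78, 48 and 82 cells passed 4 of 11 Apoe+-like markers. It was left unnamed, because its leading genes held the tumor-cell marker Phox2a and no macrophage marker. They also included the neuronal gene Stmn2, and its median depth was 1366 UMIs. It was kept out of the main tests of the subsets. At a resolution of 0.8, another 40 cells led by genes such as Xcr1 and Cd209a, markers of dendritic cells, stayed unnamed. In Apoe+-like cells C1qa stood at 3993, 5563 and 5561 CPM, C1qb at 5229, 6824 and 6369 CPM, and C1qc at 2905, 4540 and 3627 CPM. In Pecam1+-like cells the values for C1qa were 55.5, 673 and 552 CPM, for C1qb 92.6, 1391 and 942 CPM, and for C1qc 39.3, 645 and 471 CPM. In the Ccr2+-like cells of tumors 1 and 3, which had 10 or more cells, C1qa was at 22.7 and 801 CPM, C1qb at 49.6 and 974 CPM, and C1qc at 26.4 and 534 CPM. The Apoe+-like values of all 3 chains lay above those of the other subsets with no overlap, and within the other subsets tumor 1 was the lowest. The paper on these same tumors had already defined its Apoe+ macrophages by C1qb, together with Apoe and Cd63. The markers of this subset, Apoe and Cd63 among them, were chosen with that known, so its high C1q is no independent finding.

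The test of the Apoe+-like cells against the mean of the other subsets covered 4454 genes, of which 4.92% were called higher and 0.741% lower. It called 2 of the 8 complement genes tested higher, Cfp and C3ar1, and none lower. The C1q chains were higher in 3 of 3 tumors, with log2 fold changes of 3.68 ± 0.97 (SE) for C1qa, 3.32 ± 0.90 for C1qb and 3.62 ± 0.94 for C1qc, but missed the threshold at edgeR's adjusted p of 0.0583, 0.0651 and 0.0545. With each tumor as a replicate block, since the subsets of a tumor share an animal, 5 genes were called higher, the 3 chains included, with adjusted p of 0.000169, 0.000248 and 0.000153, and 1 was lower, C3. DESeq2 also called 5 higher. Over the 11 alternatives tried, the adjusted p of C1qa ranged from 7.09e-18 to 0.165 and passed in 9, as did those of C1qb and C1qc. None of the 8 was lower at an unadjusted p under 0.05 by edgeR or by DESeq2. The median log2 fold change was 2.61 over the 8 genes and 0.02 over all genes tested.

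**Figure D2:**
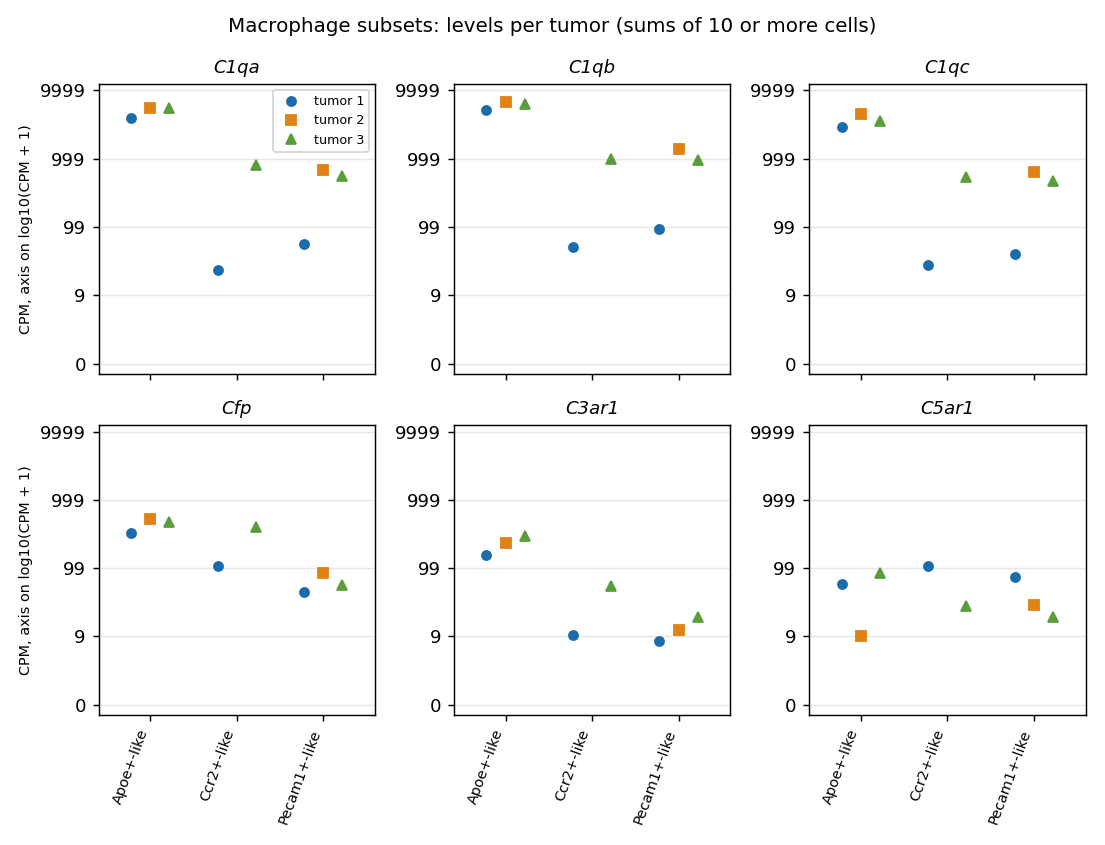
Levels of 6 complement genes in the macrophage subsets of each tumor, as CPM on an axis of log10(CPM + 1), with 1 point per tumor and no Ccr2+-like point for tumor 2, which had 9 such cells. C1qa, C1qb, C1qc and C3ar1 are higher in the Apoe+-like cells than in any sum of the other subsets, and C5ar1 overlaps between subsets.

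Much of the C1q RNA counted in Pecam1+-like and Ccr2+-like cells came from few of them. In tumor 1 the 298 Pecam1+-like cells had 415 C1q UMIs, and 64.6% of them came from 2 cells. In the 188 Ccr2+-like cells of tumor 1, 2 cells gave 69.0% of 187 UMIs. The corresponding shares were 34.4% of 483 UMIs and 43.6% of 534 UMIs in the Pecam1+-like cells of tumors 2 and 3, and 71.1% of 173 UMIs in the 15 Ccr2+-like cells of tumor 3. Thinned to 500 UMIs, 2.68% (1.17 to 5.22%), 28.9% (15.4 to 45.9%) and 13.6% (6.04 to 25.0%) of the Pecam1+-like cells of tumors 1, 2 and 3 had a C1q UMI. The share in tumor 1 lay below the 7.69% of the tumor-like cells of that tumor, which were shallower before thinning. At full depth the order was reversed, as 83.6% of these Pecam1+-like and 86.9% of these tumor-like cells had no C1q UMI. There, 9 of the 298 Pecam1+-like cells of tumor 1 had all 3 chains, with up to 138 C1q UMIs in 1 cell. The highest count in a tumor-like cell of any tumor was 3. In Apoe+-like cells the shares at 500 UMIs were 78.8% (68.2 to 87.1%), 93.3% (68.1 to 99.8%) and 96.9% (83.8 to 99.9%).

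The unnamed subcluster carried C1q as well. C1qa was at 1178, 1155 and 804 CPM of its raw totals in tumors 1, 2 and 3, and 53.8%, 66.7% and 61.0% of its cells had a C1q UMI at 500 UMIs. Its summed level of 9 tumor-cell markers was 146, 1426 and 1681 CPM, against 29.1, 279 and 439 CPM in Apoe+-like cells. The part of mixed droplets in these values was not tested. With this subcluster as a group of its own, an alternative chosen after seeing the data, 5 complement genes were called higher in Apoe+-like cells.

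**Figure D3:**
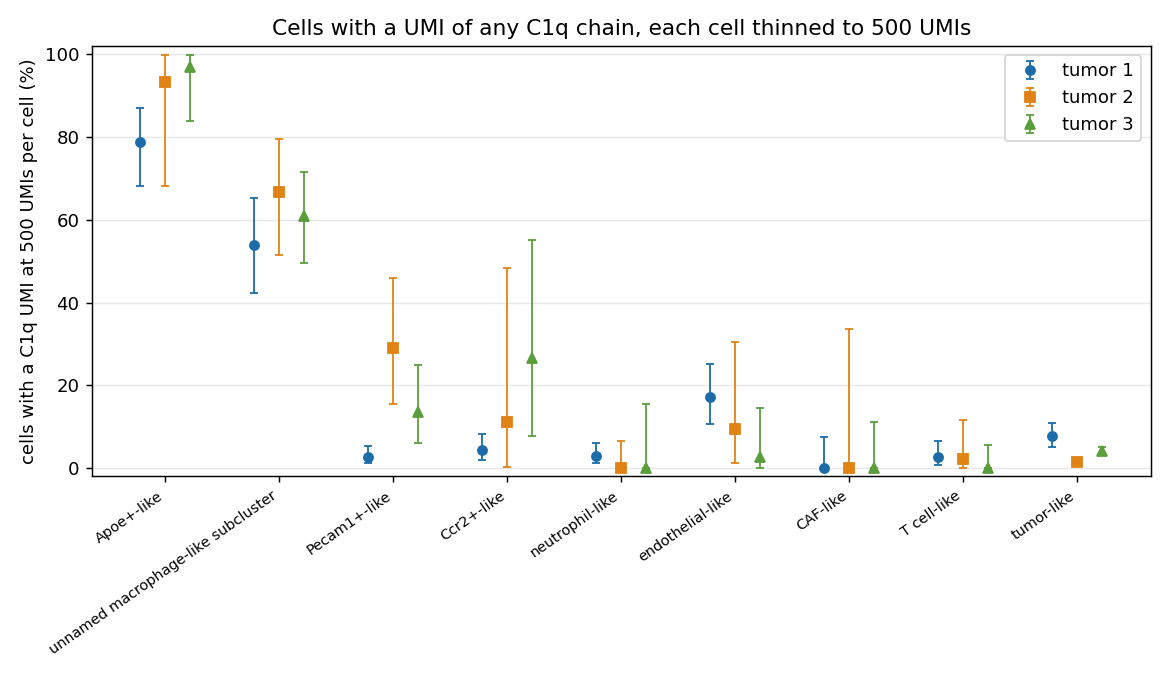
Share of cells with a UMI of any C1q chain after each cell was thinned to 500 UMIs, per tumor, with exact binomial 95% intervals. The Apoe+-like cells stand at 78.8 to 96.9%, the unnamed macrophage-like subcluster at 53.8 to 66.7%, and tumor-like cells, the background, at 1.38 to 7.69%.

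The 3 chains were counted together in the same cells. At full depth, all 3 were found in 65 of 80, 13 of 15 and 31 of 32 Apoe+-like cells of tumors 1, 2 and 3, and no chain in 9, 1 and 0 of them. Their median C1q count was 150.5, 103 and 73 UMIs per cell, up to 913 in 1 cell. In tumor-like cells all 3 chains were never found together in any of 3388 cells, and the highest C1q count in such a cell was 3. Of these cells, 3004 had no chain and 358 had 1. Since all 3 chains need at least 3 UMIs in a cell, such low counts cannot show whether chains occur together.

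The proportions of the chains were also nearly constant between the macrophage-like cells of the 3 tumors. C1qa gave 32.5% (31.8 to 33.3%), 31.0% (29.2 to 32.8%) and 34.2% (32.7 to 35.7%) of the C1q UMIs in the macrophage-like cells of tumors 1, 2 and 3. C1qb gave 43.5%, 42.9% and 42.0%, and C1qc 24.0%, 26.1% and 23.8%. Between subsets there was a small difference. In Pecam1+-like cells C1qb made up 49.4% (44.5 to 54.3%), 51.3% (46.8 to 55.9%) and 47.9% (43.6 to 52.3%) of the C1q UMIs, above the 43.1% (42.3 to 43.9%), 40.3% (38.1 to 42.6%) and 40.9% (39.1 to 42.8%) of Apoe+-like cells in each tumor, with intervals that did not overlap. These intervals treat UMIs as independent, whereas 34.4 to 64.6% of the Pecam1+-like UMIs of a tumor came from 2 cells. The tumor-like cells of all 3 tumors together, with 428 C1q UMIs, had 34.1% C1qa, 43.9% C1qb and 22% C1qc, close to the 32.6%, 43.2% and 24.2% of all macrophage-like cells. Of these UMIs, 325 came from tumor 3. By tumor, C1qb made up 35.3% (22.4 to 49.9%), 55.8% (41.3 to 69.5%) and 43.4% (37.9 to 49.0%) of them. In tumor 1, C1qb gave 70.4% (49.8 to 86.2%) of 27 UMIs in T cell-like and 80% (56.3 to 94.3%) of 20 in mesothelial-like cells. Those intervals lay above the macrophage-like share. In the other classes of tumor 1 with 20 or more C1q UMIs, the interval held it.

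**Figure D4:**
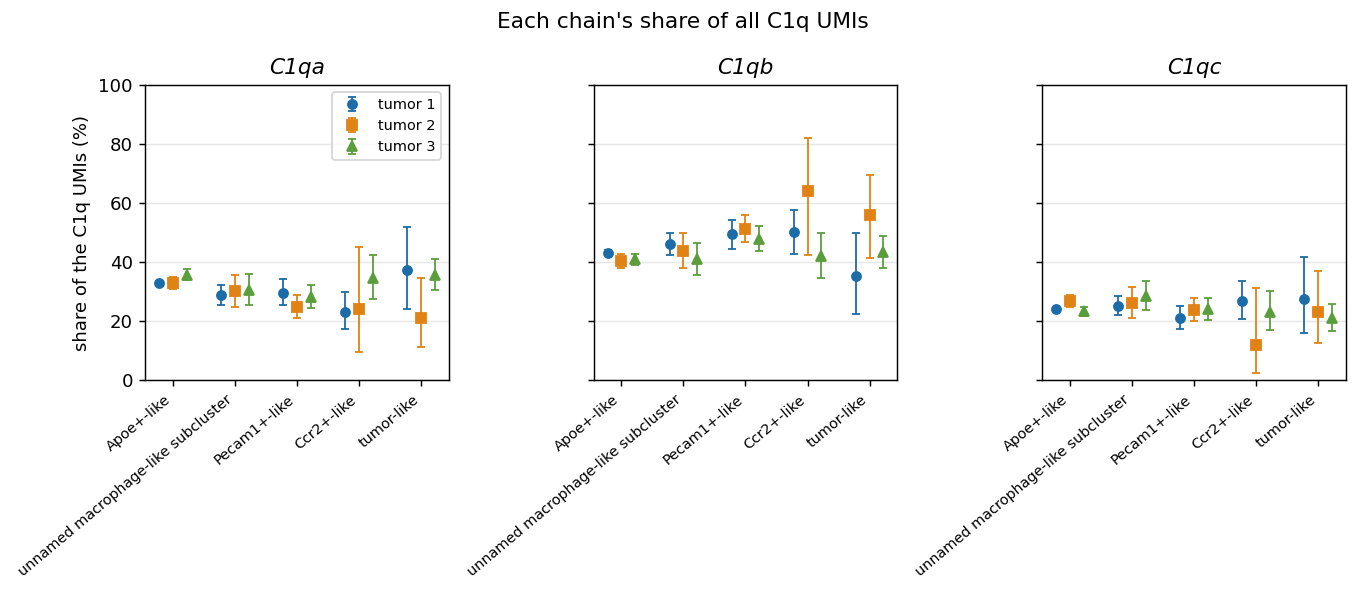
Share of each chain among all C1q UMIs of a group of cells, per tumor, with exact binomial 95% intervals. C1qb makes up 47.9 to 51.3% in Pecam1+-like and 40.3 to 43.1% in Apoe+-like cells, and groups with few UMIs have wide intervals.

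Properdin, encoded by Cfp on chromosome X (20925454 to 20931555, minus strand), was measured mainly in myeloid classes. Macrophage-like cells had 145, 185 and 202 CPM in tumors 1, 2 and 3, neutrophil-like cells 201, 32.0 and 32.0 CPM, and the plasmacytoid dendritic-like cells of tumors 1 and 3 had 110 and 54.6 CPM. Macrophage-like and neutrophil-like values overlapped, and on this scale tumor 1 was the only tumor in which neutrophil-like cells were higher. That order depends on the TMM factors, since relative to raw totals macrophage-like cells were higher in tumor 1 too. Neutrophil-like cells there held 7.80% of the Cfp UMIs and 5.60% of all UMIs, and macrophage-like cells 78.3% and 48.6%. Cfp was called higher than in the other classes both in macrophage-like cells, with edgeR's adjusted p of 1.04e-06, and in neutrophil-like cells, with an adjusted p of 6.76e-05. The second call was lost without tumor 1, with an adjusted p of up to 0.253 over the alternatives. Directly between those classes it did not pass, with an adjusted p of 0.543.

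Among macrophages Cfp followed the subsets. Apoe+-like cells had 321, 516 and 467 CPM, Ccr2+-like cells of tumors 1 and 3 had 106 and 400 CPM, and Pecam1+-like cells had 42.9, 84.1 and 55.2 CPM. The Pecam1+-like values lay below all others. Cfp was 1.90 ± 0.43 (log2, SE) higher in Apoe+-like cells than in the mean of the other subsets, with edgeR's adjusted p of 0.0312, which rose to 0.125 at most over the alternatives and failed without tumor 2 and without tumor 3. It was the single complement gene called lower in Pecam1+-like cells, at -2.44 ± 0.49 and an edgeR adjusted p of 0.0439. No member was higher there, at an unadjusted p under 0.05 or by DESeq2 either. Of all genes, 0.674% were called higher and 0.853% lower in that comparison. This call was lost in 4 of 11 alternatives, among them the fits without tumor 2 and without tumor 3, with an adjusted p of up to 0.351, while the replicate block called C3ar1 lower too, with an adjusted p of 0.00122. No complement gene was called in Ccr2+-like cells by edgeR, whose background was 0% in both directions over 4454 genes. Without adjustment, C3ar1 alone of the 8 was lower at p under 0.05 and none was higher, and DESeq2 called none. Over all genes the unadjusted counts there were 195 higher and 236 lower, and DESeq2 called 37 and 49.

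C3, the central component of the cascade, was highest outside the immune classes. The gene lies on chromosome 17 (57203970 to 57228136, minus strand), and its RefSeq promoter at chr17:57228087-57228386 is shown because C3 was called higher in both stromal classes. Capitals mark TTGCNNAA, a motif of the C/EBP factors searched on both strands. It was found in 10.8% of all promoters of this length and in 1 of the 6 at hand.
C3: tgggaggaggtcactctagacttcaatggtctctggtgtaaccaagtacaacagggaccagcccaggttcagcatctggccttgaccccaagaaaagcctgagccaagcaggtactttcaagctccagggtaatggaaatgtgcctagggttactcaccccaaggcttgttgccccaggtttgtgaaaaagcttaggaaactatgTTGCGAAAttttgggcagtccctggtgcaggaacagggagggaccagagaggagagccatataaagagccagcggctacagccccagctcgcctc

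The lone mesothelial-like sum of 10 or more cells, from the 16 cells of tumor 1, had 6910 CPM of C3. The CAF-like sums of tumors 1 and 3 had 1937 and 122 CPM. Neutrophil-like cells had 417, 96.0 and 32.0 CPM, macrophage-like cells 219, 33.7 and 47.4 CPM, and no sum of the other classes exceeded 88.0 CPM. The gap between these classes in tumor 1 was smaller relative to raw totals. There, 141 of 706850 neutrophil-like and 1027 of 6136900 macrophage-like UMIs were of C3. In each class measured in all tumors the level in tumor 1 was the highest.

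C4b, which carries the classical pathway from C1q to C3, and Cfb lie on chromosome 17 from 34728380 to 34743882 and from 34856374 to 34862518, both on the minus strand. C4b has a near-identical neighbor, C4a, which is not analysed here. Of the windows of 50 bases in the last 500 bases of the longest C4b transcript, 38.1% occur in a C4a transcript, so that counts of C4b are uncertain. Cfb overlaps the annotated gene Gm20547 on the same strand. Mesothelial-like cells of tumor 1 had 451 CPM of C4b and 162 CPM of Cfb, and the CAF-like cells of tumors 1 and 3 had 188 and 45.8 CPM of C4b and 77.2 and 0 CPM of Cfb. Among the other classes C4b was highest in the macrophage-like cells of tumor 3 at 58.2 CPM, against 1.91 and 4.81 CPM in tumors 1 and 2. Its 38 UMIs there came from 6 cells, up to 13 in 1 cell.

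C3, C4b and Cfb were the 3 complement genes called higher in mesothelial-like cells, with edgeR's adjusted p of 2.72e-07, 4.30e-07 and 0.000109. Their mean levels were 54.6, 33.3 and 40.6 times those of the other classes. Of all genes 9.73% were called higher and 0.0308% lower. This class had 1 sum, which the fit assumes to vary like the other classes. C3, C4b and Cfb were also the 3 called higher in CAF-like cells, with adjusted p of 1.98e-05, 1.48e-05 and 0.000883, beside 13.8% of all genes higher and 0.113% lower. No complement gene was called lower in either class by edgeR or DESeq2, and without adjustment C1qb alone was lower in CAF-like cells at p under 0.05. Cfb failed in both under DESeq2, with an adjusted p of up to 0.995 in mesothelial-like and 0.918 in CAF-like cells, and without tumor 1 C3 alone could be called in CAF-like cells, since C4b and Cfb no longer passed the filter on low counts. None of the 9 genes was called between CAF-like and mesothelial-like cells by edgeR, with 0.246% of all genes higher and 0.431% lower in CAF-like cells. None passed an unadjusted p under 0.05 or DESeq2, whose calls over all genes were 7 higher and 4 lower, against 355 and 337 at an unadjusted p under 0.05 by edgeR. With the replicate block C3 was called lower in CAF-like cells, with an adjusted p of 0.0402 in place of 0.836, but that contrast rests on the 1 tumor with sums of both classes, tumor 1.

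The CAF-like class was itself mixed, and C3 was highest in its fibroblast-like cells. Fibroblast-like cells (22, 3 and 2 in tumors 1, 2 and 3) had 2920, 3536 and 484 CPM of C3 on the scale of raw totals, with Poisson 95% intervals of 2772 to 3075, 3026 to 4108 and 195 to 997 CPM. Perivascular-like cells (21, 3 and 8) had 129 CPM of C3 (96.5 to 169) in tumor 1 and no C3 UMI in tumors 2 and 3. On the same scale the mesothelial-like cells had 5831 (5628 to 6040), 2542 (2140 to 2998) and 1419 CPM (1086 to 1823) from 16, 4 and 6 cells, and all 26 of these cells had a C3 UMI. The order of the tumors in mesothelial-like cells was thus 1, 2, 3 with intervals that did not overlap. These intervals are no test between tumors.

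C4b and Cfb were also counted in the fibroblast-like cells of tumors 1 and 2, with 0 UMIs in the 2 such cells of tumor 3. C4b was at 227 CPM (187 to 273) in the fibroblast-like cells of tumor 1 and at 352 CPM (205 to 563) in those of tumor 2, and at 12.2 CPM (3.95 to 28.4) in the perivascular-like cells of tumor 1. Cfb was at 121 CPM (92.1 to 155) and 145 CPM (58.2 to 298) in the fibroblast-like cells of tumors 1 and 2, and had no UMI in 32 perivascular-like cells, which allows up to 6.08 CPM. In mesothelial-like cells C4b was at 381, 90.2 and 69.8 CPM and Cfb at 137, 72.1 and 0 CPM. The CAF-like cells of tumor 3 were mostly (21 of 31 cells) of subclusters that stayed unnamed, led by neuronal or by Schwann cell genes. The 5 such cells of tumor 1, in which 5 of 6 Schwann cell markers were counted, had 28 C4b UMIs (619 CPM, 411 to 894), 1 C3 UMI and no Cfb UMI. Markers of hepatocytes, the main source of plasma C3, C4 and factor B, gave 0 UMIs over 6 genes in CAF-like cells and 1 UMI in mesothelial-like cells.

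**Figure D5:**
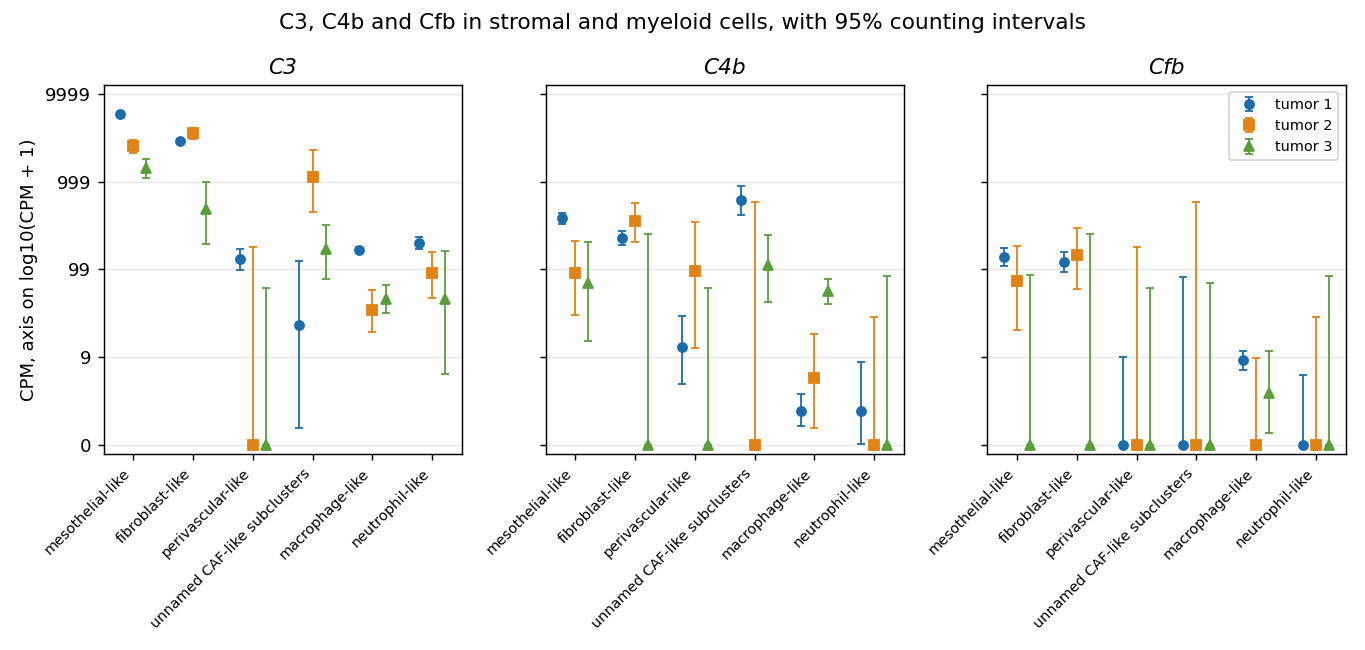
Levels of C3, C4b and Cfb in mesothelial-like cells, CAF-like subclusters and myeloid classes of each tumor, as CPM of the raw total on an axis of log10(CPM + 1), with Poisson 95% intervals. All 3 genes were counted in the mesothelial-like and fibroblast-like cells of tumors 1 and 2, and the points at 0 come from sums without a UMI.

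The few stromal cells held a large part of these transcripts. Mesothelial-like cells, 0.836%, 0.328% and 0.239% of the cells of tumors 1, 2 and 3, held 4.22%, 2.02% and 0.824% of the UMIs of all genes. CAF-like cells held 7.55%, 2.75% and 2.47% of them. Of the C3 UMIs, mesothelial-like cells gave 52.9%, 40.2% and 53.0%, and CAF-like cells gave 25.6%, 50.7% and 13.9%. Macrophage-like cells gave 17.5%, 3.99% and 27.0%. For C4b, mesothelial-like and CAF-like cells gave 203 and 146 of the 365 UMIs in tumor 1, and in tumor 3 macrophage-like cells gave 76.0% of 50 UMIs. Cfb totals were 185, 11 and 4 UMIs, so that only tumor 1 shows its distribution, with 39.5% in mesothelial-like, 32.4% in CAF-like and 27.6% in macrophage-like cells.

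Among myeloid cells C3 was low and uneven. It was called higher in neutrophil-like cells than in the mean of the logarithms of the other classes, with edgeR's adjusted p of 0.0318, although its mean there, 182 CPM, was below the 738 CPM averaged over the other classes, mesothelial-like and CAF-like cells included. That call was lost under DESeq2, without tumor 2 and with the authors' corrected counts, and its adjusted p ranged from 3.79e-07 to 0.1 over the alternatives. In macrophage-like cells C3 did not pass, with an adjusted p of 0.336, nor did C4b and Cfb at 0.0518 and 0.149. With the replicate block C3 and Cfb were called, at 2.87e-05 and 0.0129. In tumor 1, C3 was at 268 CPM in Ccr2+-like, 189 CPM in Pecam1+-like and 77.2 CPM in Apoe+-like cells, with the Apoe+-like cells the lowest, and in tumors 2 and 3 it rested on 1 to 22 UMIs per subset. C3 in Apoe+-like cells was 1.72 ± 0.78 (log2, SE) below the other subsets, which passed only without the filter on low counts and with the replicate block, where its adjusted p was 0.0046 in a range of 0.000807 to 0.691.

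The receptors C3ar1 (chromosome 6, 122847138 to 122856161) and C5ar1 (chromosome 7, 16246743 to 16259540), both on the minus strand, differed in the cells that carried them. C3ar1 stood at 47.7, 67.4 and 98.0 CPM in the macrophage-like cells of tumors 1, 2 and 3 and at no more than 27.1 CPM in any sum of another class. C5ar1 stood at 1394, 320 and 176 CPM in neutrophil-like and at 93.6, 16.8 and 36.7 CPM in macrophage-like cells. Every neutrophil-like value of C5ar1 exceeded every macrophage-like one, and tumor 1 was the highest in both classes. The size of the neutrophil-like values depends on the TMM factors. Those cells had 471, 40 and 11 C5ar1 UMIs among raw totals of 706850, 133340 and 44646 UMIs. Relative to raw totals the spread between their tumors was narrower, and the order of tumors and classes was the same.

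Neutrophil-like cells had 3 complement genes called higher than in the other classes, C3, Cfp and C5ar1, and none lower, at an unadjusted p under 0.05 or by DESeq2 either, beside 14.4% of all genes higher and 1.13% lower. The call was firmest for C5ar1, at an edgeR adjusted p of 1.36e-08 and a call in 11 of 11 alternatives. On the TMM scale its mean of 630 CPM was 87.2 times the average elsewhere. Set directly against macrophage-like cells, 1 complement gene was higher in neutrophil-like cells and 4 were lower, where 3.58% of all genes were higher and 2.74% lower. C5ar1 was higher by 3.65 ± 0.89 (log2, SE), with edgeR's adjusted p of 0.0141, and was higher in 3 of 3 tumors. That call failed under DESeq2, without tumor 2, without tumor 3 and with the authors' corrected counts, with an adjusted p of up to 0.140. C1qa, C1qb and C1qc were lower by 6.59, 6.29 and 6.66 on the log2 scale, with edgeR's adjusted p of 0.00126 each, and held in 11 of 11 alternatives. The scaling matters to this comparison, since with RLE factors 460 genes were higher and 121 lower, in place of 349 and 267, and the median of all genes moved from -0.13 to 0.28 on the log2 scale. DESeq2 called 335 higher and 88 lower. The directions of C5ar1 and the C1q chains were the same under each. That of C3ar1 was the same with RLE factors and was not assessed under DESeq2.

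C3ar1 was also lower in neutrophil-like cells. No C3ar1 UMI was found in any of 312 neutrophil-like cells with 884838 UMIs, which allows a share of cells with a UMI of up to 0.962% and a level of up to 3.39 CPM. Against the 43.7 CPM of the pooled macrophage-like cells it was at least 12.9-fold lower, the bound being 3 counts over all neutrophil-like cells. Its edgeR adjusted p of 0.00504 rose to 0.0897 at most, without tumor 2, where the call was lost, and DESeq2 gave no adjusted p for it. CAF-like, T cell-like and mesothelial-like cells also had no C3ar1 UMI, with bounds of 16.9-fold, 14.2-fold and 9.20-fold.

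Both receptors were called higher in macrophage-like cells than in the other classes, C3ar1 with edgeR's adjusted p of 1.03e-06 and C5ar1 with 0.00153, and both calls were lost under DESeq2, with an adjusted p of up to 0.279 and 0.171. For C5ar1 the test on logarithms and the means differ in sign, since its mean of 49.1 CPM in macrophage-like cells was below the 60.0 CPM averaged over the other classes, neutrophil-like cells included. Within macrophages C3ar1 followed C1q. It stood at 154, 230 and 291 CPM in Apoe+-like, 7.68, 11.2 and 18.4 CPM in Pecam1+-like, and 9.50 and 53.4 CPM in the Ccr2+-like cells of tumors 1 and 3. It was higher in Apoe+-like cells by 4.07 ± 0.52 (log2, SE), with edgeR's adjusted p of 0.00195, and was called in 11 of 11 alternatives. C5ar1 was at 57.7, 9.21 and 82.4 CPM in Apoe+-like and 72.7, 28.0 and 18.4 CPM in Pecam1+-like cells, which overlapped, with an adjusted p of 0.966.

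In single cells, a C5ar1 UMI was found at 500 UMIs in 26.7% (21.2 to 32.8%), 13% (5.37 to 24.9%) and 13.6% (2.91 to 34.9%) of the neutrophil-like cells of tumors 1, 2 and 3, and in 2.33%, 0.909% and 1.06% of the macrophage-like cells. In tumor-like cells it was 0.855%, 0% of 940 cells, which allows up to 0.319%, and 0.0954%. C3ar1 was found at full depth in 54 of 80, 10 of 15 and 18 of 32 Apoe+-like cells, and in 8 of 298, 2 of 38 and 3 of 59 Pecam1+-like cells, with median depths of 15578, 8348 and 6352.5 UMIs against 7091, 3866.5 and 3931 UMIs. In tumor-like cells it was found in 0 of 351, 2 of 940 and 2 of 2097. Both receptors were counted together in 28 Apoe+-like cells of tumor 1, out of 54 with C3ar1 and 31 with C5ar1. The same was seen in 0 cells of tumor 2, out of 10 and 1, and in 5 cells of tumor 3, out of 18 and 9.

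Of the 42 other complement genes in the files, 20 passed the filter on low counts. In CAF-like cells 11 of them were called higher, where 13.8% of all genes were, and in mesothelial-like cells 9, where 9.73% were. In macrophage-like cells 7 were called higher, beside 10.2% of all genes, and in neutrophil-like cells 6, beside 14.4%. None was called lower, and the difference between classes in these counts was not tested. In CAF-like cells these included 3 of 3 tested genes of the C1 proteases and C2, which continue the cascade after C1q, and 4 of 4 tested soluble regulators. Their median fitted log2 fold change was 3.01 over the 20 genes, against 0.41 over all genes tested. In mesothelial-like cells the same lists had 3 of 3 and 3 of 4 called, and the median over the 20 genes was 2.15, against 0.39 over all. Neither any of the 7 terminal components, which form the membrane pore, nor the alternative pathway protease Cfd, passed the filter.

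Some of the genes behind these counts were shared between classes. Serping1, the C1 inhibitor, stood at 1105 and 282 CPM in the CAF-like cells of tumors 1 and 3 and at 940 CPM in mesothelial-like cells, against 4.68, 0 and 0 CPM in macrophage-like cells. The protease C1s1 was at 414 and 91.6 CPM in CAF-like and 643 CPM in mesothelial-like cells, and C1ra at 213 and 15.3 CPM and at 454 CPM. All of them were called higher in both classes, with edgeR's adjusted p between 5.00e-09 and 2.53e-07. Vtn, or vitronectin, stood at 43.7 and 99.2 CPM in CAF-like cells and was called higher there, with an adjusted p of 2.12e-06, and was not called in the other 3 classes tested. The C1q chains were thus called higher in macrophage-like cells, and C1s1 and C1ra in CAF-like and mesothelial-like cells. In macrophage-like cells, of the 3 tested genes of the C1 proteases and C2, 0 were called higher and 0 lower.

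Myeloid classes had other members. Fcna, a ficolin of the lectin pathway, was at 8.72, 62.6 and 41.3 CPM in macrophage-like cells and, among subsets, at 32.2, 221 and 143 CPM in Apoe+-like cells, with edgeR's adjusted p of 0.000101 and 0.00955. The related Fcnb was at 50.3, 112 and 0 CPM in neutrophil-like cells, with an adjusted p of 4.31e-05, and no macrophage-like sum exceeded 1.53 CPM. C5ar2, the second receptor of the C5 fragment and the neighbor of C5ar1 at a distance of 2588 bases, was at 104, 16.0 and 16.0 CPM in neutrophil-like cells from 35, 2 and 1 UMIs. It was called higher in neutrophil-like than in macrophage-like cells with an adjusted p of 0.0232, as was Fcnb at 0.0106, while the scavenger collectin Colec12 was lower at 0.0220. Itgam, a chain of complement receptor 3, was called higher in both myeloid classes, at 229, 55.3 and 88.8 CPM in macrophage-like and 719, 136 and 128 CPM in neutrophil-like cells, as was Itgax of complement receptor 4, at 114, 69.8 and 64.3 CPM in macrophage-like cells.

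Across the 27 sums of class and tumor, the genes with the pattern most like each complement gene were found by Pearson's r of log2(CPM + 1) among 7259 genes. The sums share tumors and differ widely in depth, so r is a description, and Mrc1 and Csf3r were among the marker genes that named the classes. For C1qa the nearest genes were C1qb (r = 0.847), the mannose receptor Mrc1 (0.841) and C1qc (0.835), and for C1qb they were C1qa, Mrc1 (0.839) and C1qc (0.827). C1qc was followed by C1qa, C1qb and the chemokine Pf4 (0.818), and Pf4 was also the nearest to C3ar1 (0.885). C5ar1 was nearest to the lectin receptor Clec4e (0.953), Mcemp1 (0.95) and Csf3r (0.936). C3 was nearest to Igfbp6 (0.870), C4b to Scarf2 (0.879), Cfb to Folr1 (0.909) and Cfp to Csf2rb (0.898).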

How the data were processed

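Single-cell 3′ RNA was measured in 3 tumors. The authors deposited, per tumor, raw UMI counts of all barcodes, and a table of kept cells on a natural log scale, ln(corrected count + 1). The submitters' processing notes name Cell Ranger 3.1.0, Seurat 3.1.5 and mm10. Corrected counts recovered from the deposited natural log values were whole, and exceeded the raw counts in 686 cells of tumor 1, so raw counts of kept cells were used here and the corrected counts were an alternative. Kept cells held 12628163, 2740537 and 5215401 UMIs.

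Cells were clustered with Seurat 5.3.0 in R 4.3.3 on 2000 variable genes with complement genes held out, 30 dimensions, 20 neighbors and a resolution of 1 (0.5 for macrophage subsets). A cluster was named when at least 3 markers passed a fold of 2 in 10% of its cells. It stayed unnamed where its leading genes held more markers of an unrelated type than of its own. No doublet caller was run. Sums of at least 10 cells were tested with edgeR 4.0.16 (TMM, filterByExpr, quasi-likelihood test, Benjamini-Hochberg adjustment over all genes tested, threshold 0.05), on 27 class sums and 9745 genes and on 8 subset sums and 4454 genes. DESeq2 1.42.0, RLE factors, no filter on low counts, the replicate block, leaving out each tumor, other resolutions and the corrected counts were alternatives, and 2 further ones were chosen after seeing the data. An adjusted p that DESeq2 left as NA was kept out. The code was tested on simulated data. Sums from 1 tumor share a mouse, which pairs them. Deviations from the class means correlated by 0.0436 to 0.623 in 45 same-tumor pairs and by -0.459 to 0.224 in 90 other pairs, and for subsets by 0.288 to 0.569 in 3 pairs and -0.445 to 0.114 in 6.

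The 9 members and all gene lists were chosen with earlier results of these data known. All 9 members are named, with the 3 genes most correlated with each, of which the text gives 1 to 3, and, of the 42 other complement genes, up to 3 with the largest fold change per direction among those called in each comparison. C4a was not used here. Gene positions are from GENCODE M21.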

Additional observations from a re-analysis of the deposited data

How the results depend on the processing

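Of 788 values for single genes under the alternatives, 712 kept their side of the threshold, 57 newly passed and 19 no longer passed. Among values that passed in either fit, 0 reversed. The 712 include values that passed in neither fit, whatever their direction. For example, C4b in Ccr2+-like cells moved from 3.74 to as low as -2.22 on the log2 scale. The number of complement genes called higher in macrophage-like cells was 6, and 4 under DESeq2, 5 with the corrected counts, 8 with the block, 9 without the filter and 6 or 7 under the others. In neutrophil-like cells it was 3, and 2 under DESeq2, with the corrected counts and without tumor 1 or tumor 2, and in mesothelial-like cells it was 3, and 2 under DESeq2. Other counts changed as follows. In Apoe+-like cells 5 were higher, in place of 2, under DESeq2, no filter on low counts, the replicate block, the corrected counts, resolutions of 0.3 and 0.8 and a group for the unnamed subcluster, and 1 to 5 when a tumor was left out (5 without tumor 1, 1 without tumor 2, 4 without tumor 3), and 1 was lower without the filter and with the block. In Pecam1+-like cells, in place of 1 lower, 2 were under DESeq2, the block and the corrected counts, 4 without the filter, 0 at a resolution of 0.8 and with a group for the unnamed subcluster, and 0 to 6 when a tumor was left out (6 without tumor 1). In Ccr2+-like cells 2 were higher and 3 lower without the filter, in place of 0. Between neutrophil-like and macrophage-like cells 0 were higher, in place of 1, under DESeq2, with the corrected counts, and without tumor 2 or tumor 3 (range 0 to 1). In CAF-like cells 1 was higher without tumor 1 (range 1 to 3), where fewer genes were tested, and 1 was lower without the filter and without tumor 2 (range 0 to 1). CAF-like against mesothelial-like cells gave 1 lower with the block, from 1 tumor with both classes. The replicate block moved no other count by over 1.5 times. Except where fewer genes were tested, the cause was not tested.

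The share of macrophage-like cells with a C1q UMI was 32.0%, 67.3% and 64.4% in tumors 1, 2 and 3 without thinning, 63.6% and 57.4% in tumors 2 and 3 at 1000 UMIs, and 66.4% and 62.8% with the corrected counts. In tumor-like cells it was 13.1%, 5.32% and 13.7% without thinning, 3.40% and 7.87% in tumors 2 and 3 at 1000 UMIs, and 8.92% in tumor 3 with the corrected counts. The comparisons with mesothelial-like cells were not run without tumor 1 or at a resolution of 0.6, where no sum of that class had 10 cells.

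Over all genes, the number called higher in macrophage-like cells was 992, and 393 under DESeq2, 1775 without the filter, 1672 with the block and 607 with the corrected counts. It was 1342 in CAF-like cells and 609 under DESeq2, 948 in mesothelial-like cells and 186 under DESeq2, and 24 between CAF-like and mesothelial-like cells and 166 with the block. In Pecam1+-like cells it was 30, and 294 with the block and 0 without tumor 2. In Ccr2+-like cells it was 0, and 82 with the block. The median log2 fold change of all genes in macrophage-like cells moved from 0.38 to 0.03 under DESeq2, and in neutrophil-like cells from 0.23 to 0.62 with RLE factors. The Apoe+-like sum of tumor 2 and the Ccr2+-like sum of tumor 3 held 15 cells each, and the 9 Ccr2+-like cells of tumor 2 entered no test.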
